A study of Mus musculus with 9 samples.

Results

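The genes described here encode parts of the MHC class I presentation pathway. They were chosen by name: the heavy chain genes H2-D1, H2-K1, H2-Q6 and H2-T23, the peptide transporter genes Tap1 and Tap2, the tapasin gene Tapbp, the immunoproteasome subunit genes Psmb8 and Psmb9, and Nlrc5, which encodes a transactivator of class I genes. The choice was made with earlier results of these data known. Of these 10 genes, 9 are among the 22036 genes with values in the deposited table, and all 9 are among the 14955 that passed the filter on low values; H2-T23 was not analysed here. RNA was sequenced from microglia, which are brain-resident macrophages, taken by flow sorting from wild-type female C57BL/6 mice of 3 ages, with no treatment named. Young mice were 6 months old, middle-aged mice 15 months and old mice 23 months. Each age had 3 libraries, each made from the pooled cells of 3 mice, and errors below are therefore between pools. Values are on the log2 scale of normalized counts, made by a transformation that is not stated and may have shrunk differences: H2-Q6 differed by 0.74 on it in old against young libraries, against a log2 fold change of 1.16 in the authors' deposited table. Folds, counts per kilobase and sums below are these values taken off the log2 scale, so they can understate a change in reads. The 2 sources can also differ the other way: H2-D1 had 1.52 here in old against middle-aged libraries and 1.04 in the authors' deposited table. The depth of the libraries is unknown.

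Class I molecules sit on the surface of nearly all nucleated cells and show peptides from inside the cell to CD8+ T cells. The proteasome cuts proteins into peptides, and the immunoproteasome, in which Psmb8 and Psmb9 take the place of the constitutive subunits Psmb5 and Psmb6, favours peptides that fit class I grooves. Tap1 and Tap2 form the pump that carries peptides into the endoplasmic reticulum, where tapasin holds empty class I molecules beside the pump. The heavy chain pairs there with beta-2 microglobulin. Nlrc5 and interferon signalling raise transcription of much of the pathway, and microglia are known to express it at low to moderate levels in the resting brain.

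The upstream sequences of 3 heavy chain genes and of Tap1 are shown because the heavy chains held several of the same motifs while not all of them were called with age, and because Tap1 and Psmb9 start head to head. These are the 250 bases before the RefSeq gene start on GRCm38.p6, read along each gene, with all motif matches in capitals.
H2-D1, chr17:35262844-35263093, plus strand: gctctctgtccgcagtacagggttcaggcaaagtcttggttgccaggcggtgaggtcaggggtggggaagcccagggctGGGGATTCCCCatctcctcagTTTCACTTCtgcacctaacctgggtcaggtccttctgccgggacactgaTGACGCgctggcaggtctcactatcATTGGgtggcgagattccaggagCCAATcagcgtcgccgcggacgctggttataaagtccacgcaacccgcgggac
H2-K1, chr17:34000348-34000597, minus strand: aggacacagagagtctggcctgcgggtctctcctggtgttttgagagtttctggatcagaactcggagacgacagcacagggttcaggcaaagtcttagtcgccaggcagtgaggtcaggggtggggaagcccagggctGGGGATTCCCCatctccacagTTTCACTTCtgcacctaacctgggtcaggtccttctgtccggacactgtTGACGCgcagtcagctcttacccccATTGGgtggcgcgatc
H2-Q6, chr17:35424600-35424849, plus strand: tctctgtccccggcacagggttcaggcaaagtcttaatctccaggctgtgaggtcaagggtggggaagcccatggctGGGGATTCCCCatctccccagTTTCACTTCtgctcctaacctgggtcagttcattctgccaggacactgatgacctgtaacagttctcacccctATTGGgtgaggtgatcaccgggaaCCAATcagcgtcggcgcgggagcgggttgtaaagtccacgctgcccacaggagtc
Tap1, chr17:34187306-34187555, plus strand: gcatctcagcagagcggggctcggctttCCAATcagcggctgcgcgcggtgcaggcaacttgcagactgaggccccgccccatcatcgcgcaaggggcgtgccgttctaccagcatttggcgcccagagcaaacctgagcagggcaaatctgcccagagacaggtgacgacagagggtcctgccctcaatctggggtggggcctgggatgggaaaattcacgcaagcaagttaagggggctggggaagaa
The motifs searched on both strands were a palindromic kB site (the capitals farthest upstream in the 3 heavy chain genes), an IRF-type site (GAANNGAAA), a GAS-type site (TTCNNNGAA), an X2-type site (TGACGC) and a CCAAT box (CCAAT); the matches in these promoters did not overlap. H2-D1, H2-K1 and H2-Q6 each held the kB site, an IRF-type site read as TTTCACTTC and at least 1 CCAAT box. The kB site lay 171 to 161 bases before the start in H2-D1, 111 to 101 in H2-K1 and 173 to 163 in H2-Q6. H2-K1 has another RefSeq start, not shown, before which the kB site lay 125 to 115 bases and a further CCAAT box matched. Such distances depend on the annotated start used. H2-D1 and H2-K1 also held the X2-type site, which these letters did not match in H2-Q6. Among 27025 promoters of the same length, one per gene, 0.0222% held the kB site, 6.34% the IRF-type site, 7.18% the GAS-type site, 6.14% the X2-type site and 34.5% a CCAAT box. The 6 promoters with the kB site were those of H2-D1, H2-K1, H2-Q6, Aipl1, Atg16l2 and Pdzd2. The CCAAT box 222 to 218 bases before the start of Tap1 is the one 8 to 4 bases before the start of Psmb9 on the other strand. RefSeq promoters were found for 8 of the 10 genes, and a match is a description of letters only.

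**Figure D1:**
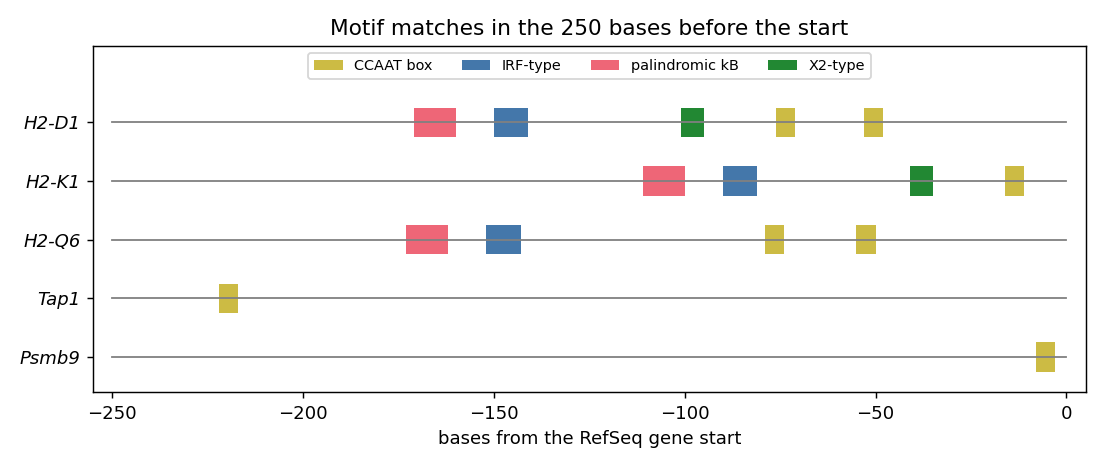
Motif matches in the 250 bases before the RefSeq start of 5 genes, with distance from the start in bases on the x axis and each coloured block a match. The kB and IRF-type blocks keep their order and spacing in H2-D1, H2-K1 and H2-Q6, and the blocks in H2-K1 lie closer to its annotated start.

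All of the genes lie on chromosome 17 of GRCm38 except Nlrc5, on chromosome 8 at 94434356 to 94527272. H2-D1 spans 35262730 to 35267499 and H2-Q6 35424850 to 35430055, both on the plus strand, and H2-K1 spans 33996017 to 34000347 on the minus strand. Heavy chain genes resemble each other closely. The coding sequences of H2-D1 and H2-K1 were 91.5% identical, those of H2-D1 and H2-Q6 89.6% and those of H2-Q6 and its neighbour H2-Q7 95.4% (GENCODE M21). Of all 50-base stretches in the transcripts of H2-Q6, 32.0% also occur in transcripts of other genes, against 13.9% for H2-D1 and 6.87% for H2-K1. At 100 bases these shares were 10.8% for H2-Q6, 4.09% for H2-D1 and 0% for H2-K1. Neither the read length nor the counter is stated, so how reads were divided among the heavy chain genes is uncertain. Compared along the transcript strand only, Psmb8, Psmb9 and Nlrc5 shared no 50-base stretch with another gene. In GENCODE M21 the first exons of Tap1 and Psmb9 lie on opposite strands and the genes overlap by 212 bases, and Tap2, Tapbp, Psmb8 and Nlrc5 also overlap other annotated genes; whether the counting used strand is not stated.

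Across the 9 libraries, the cells carried microglial markers. All 15 of 18 microglia markers with values passed the filter on low values, and their summed level was 2041280 to 2578510 normalized counts per library. Neutrophil markers summed to 266509 to 493859 in young, 434397 to 987669 in middle-aged and 216590 to 492438 in old libraries. Border macrophage markers summed to 133383 to 141041 in young, 95555 to 118339 in middle-aged and 87428 to 111047 in old libraries. Dendritic cell markers, which include Siglech of the microglia list, summed to 85166 to 92490 in young and 61251 to 70625 in old libraries. Across ages, B cell markers summed to 70292 to 88370, astrocyte markers to 15180 to 20274 and oligodendrocyte markers to 6001 to 10042. Endothelial and mural markers summed to 3315 to 4462, and neuron markers, of which 4 of 7 passed the filter, to 268 to 319. Old replicate 3 stood apart on the first principal component, at 29.9, against -14.4 to 5.9 in the other 8 libraries. The labels name no batch. In bulk RNA, fewer cells of a type and less RNA per cell cannot be told apart.

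Per kilobase of annotated exon, H2-K1 was the highest of the 9 genes at all 3 ages and Nlrc5 the lowest. In young libraries H2-K1 stood at 32945 ± 5566 normalized counts per kilobase (SD, n = 3) and H2-D1 at 11831 ± 1943, followed by Tapbp, Psmb9, Tap1, Psmb8, H2-Q6, Tap2 and Nlrc5 at 185 ± 22.4. H2-Q6 and Tap2 overlapped there, and every other pair of neighbours in the order was apart. The order of means was the same at 15 and 23 months. In middle-aged libraries Tap1, Psmb8 and H2-Q6 overlapped, neighbour by neighbour. In old libraries H2-K1 and H2-D1 overlapped, at 35839 ± 2917 and 35752 ± 5096, and so did Psmb8 and H2-Q6.

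Between 6 and 23 months the heavy chain genes H2-D1 and H2-Q6 and the transporter gene Tap1 rose, H2-D1 by the most. In old against young libraries these 3 of 9 were called higher, 0 fell and 6 did not pass the threshold of 0.05 (limma, Benjamini-Hochberg adjustment over 14955 genes). Over all genes tested, 1.7% were called higher and 0.301% lower in this comparison. At an unadjusted p under 0.05, 7 of the 9 were higher and 0 lower, against 9.07% of all genes higher and 7.69% lower. The median log2 difference of the 9 genes was 0.42, against -0.01 over all genes. Old libraries were all above young ones for 7 of the 9, all but H2-K1 and Psmb9, and for 12.2% of all genes. In the authors' deposited table, made with DESeq2, 6 of the 9 were called higher, against 4.72% of genes: the 3 above and Tapbp, Psmb8 and Nlrc5. Without old replicate 3 the count by limma was 2, with Tap1 no longer called.

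**Figure D2:**
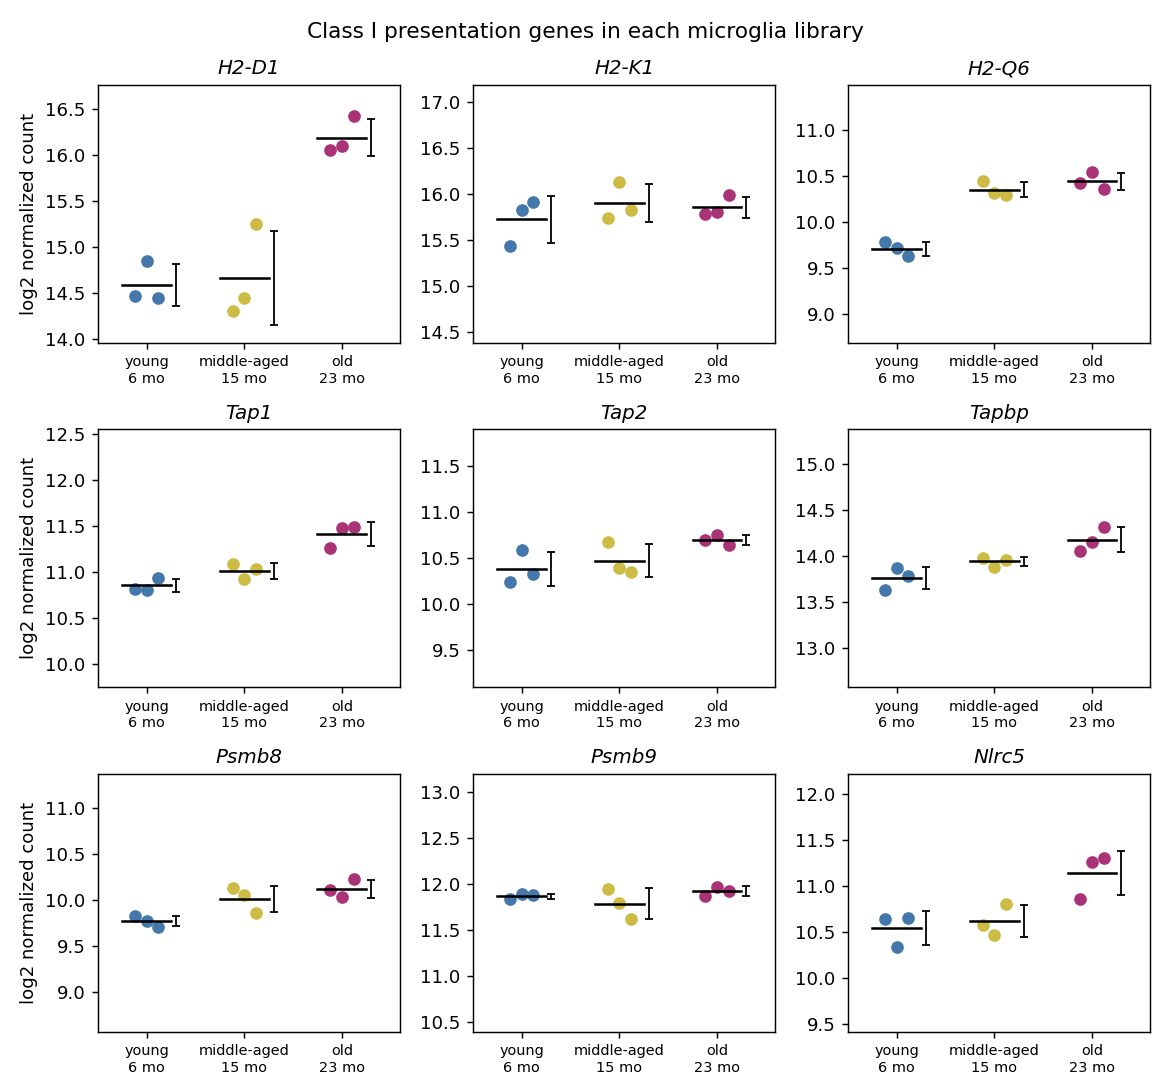
Log2 normalized counts of the 9 genes in each library at 6, 15 and 23 months, with the mean as a line and the SD as a bar; all panels span the same log2 range. The old libraries of H2-D1 lie from 16.05 to 16.42, above all others, while those of H2-K1 and Psmb9 overlap with the younger ones.

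Among the heavy chains, which present the peptide, H2-D1 encodes the classical molecule of the D locus. H2-D1 stood at 14.47, 14.85 and 14.45 in young libraries, at 14.30, 14.44 and 15.25 in middle-aged ones and at 16.05, 16.09 and 16.42 in old ones. Middle-aged replicate 3 was above every young library and the other 2 middle-aged ones were below them, and the old libraries overlapped with neither younger age. At 23 months H2-D1 was 3.03-fold higher than at 6 months (1.60 ± 0.22 on the log2 scale, SE, n = 3 each, limma adjusted p = 0.0047), a call kept in all 9 fits that left out a library. It rose 2.88-fold in old against middle-aged libraries (1.52 ± 0.22, limma adjusted p = 0.0376). That call was kept in 1 of 9 such fits, the one without middle-aged replicate 3. The old libraries enter both comparisons. Between 15 and 23 months all 12 neutrophil markers were lower in old libraries by value, with 0 called by limma or in the authors' deposited table, 2 at an unadjusted p under 0.05 and a median of -0.65, and their part in the result was not tested. In middle-aged against young libraries the H2-D1 difference was 0.07 ± 0.22 (95% interval -0.41 to 0.56). The authors' deposited table gives H2-D1 a log2 fold change of 1.72 in old against young and 1.04 in old against middle-aged libraries, with DESeq2 adjusted p of 1.8e-20 and 7.33e-06. Its value for middle-aged against young libraries is 0.10, so the 2 steps there do not add up to the whole.

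H2-K1 is the classical molecule of the K locus. It stood at 15.43, 15.82 and 15.91 in young, 15.74, 16.13 and 15.82 in middle-aged and 15.77, 15.80 and 15.99 in old libraries. The 3 ages overlapped. The difference of old minus young was 0.13 ± 0.14 (95% interval -0.17 to 0.44, limma adjusted p = 0.668), an interval whose upper end lies below the lower end of 1.11 for H2-D1. In the authors' deposited table its log2 fold change was 0.13 (DESeq2 adjusted p = 0.75).

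Because reads can be divided differently among near-identical genes, levels were also summed over the 17 rows with class I heavy chain names. Some of these rows are annotated as pseudogenes, H2-K2 and H2-Q5 among them. H2-T23 is not among the rows, so any reads assigned to it lie outside the sum. The sums were 78226, 98869 and 95753 normalized counts in young, 88909, 106968 and 108798 in middle-aged and 139028, 143871 and 165798 in old libraries. Every old library was above every younger one, while the younger ages overlapped. The ratio of mean sums was 0.72 on the log2 scale for old against young, 0.56 for old against middle-aged and 0.16 for middle-aged against young. H2-D1 made up 49.0%, 48.6% and 52.8% of the sum in old libraries, and between 20.8% and 35.7% in the 6 younger ones. H2-K1 made up 39.1% to 40.3% in old libraries and 53.1% to 67.1% in the younger ones. With H2-D1 taken out, the sums were 70949 to 78322 in old libraries and 55559 to 73397 in young ones, which overlapped.

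**Figure D3:**
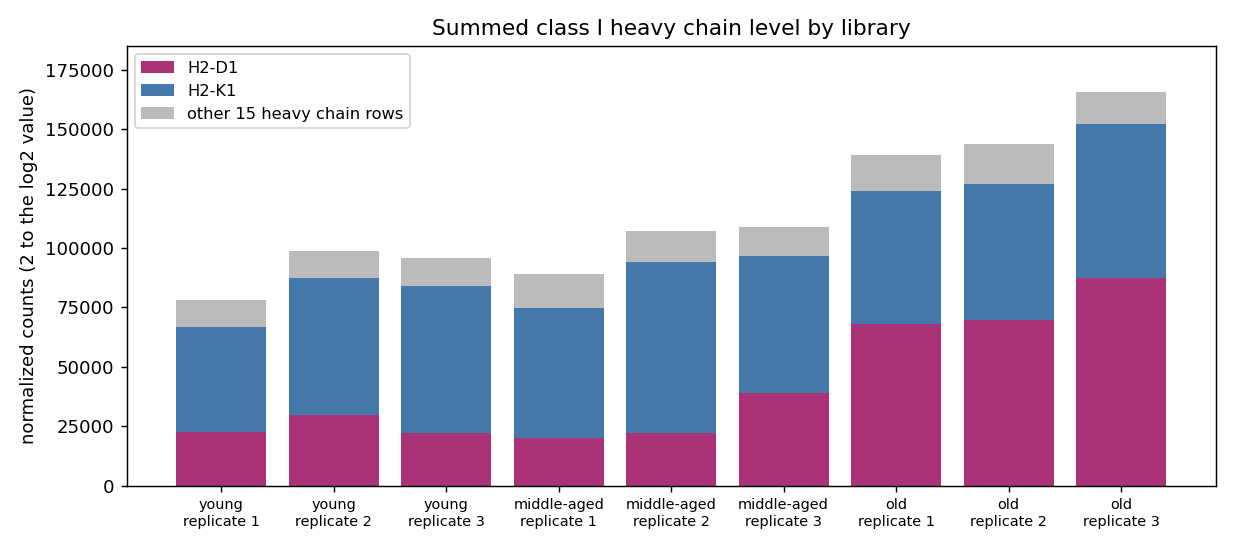
Summed class I heavy chain level in normalized counts for each library, split into H2-D1, H2-K1 and the other 15 rows. The H2-D1 segment is larger than the H2-K1 segment in the 3 old libraries and smaller in the 6 younger ones.

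Within a library, the log2 level of H2-D1 minus that of H2-K1 was -0.96, -0.97 and -1.46 in young, -1.44, -1.69 and -0.57 in middle-aged and 0.28, 0.29 and 0.43 in old libraries. The old libraries were above all of the others. Per kilobase of exon the old differences were -0.07, -0.05 and 0.09, so the order of these 2 genes at 23 months depends on the length used. This contrast was chosen after its values were seen and has no test.

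H2-Q6 encodes a non-classical heavy chain of the Qa-2 region. It stood at 9.78, 9.72 and 9.63 in young, 10.45, 10.32 and 10.30 in middle-aged and 10.43, 10.55 and 10.36 in old libraries. All 6 libraries of the later ages lay above all young ones, and the later ages overlapped. H2-Q6 rose 1.67-fold in old against young libraries (0.74 ± 0.10 SE, n = 3 per group, limma adjusted p = 0.00368), a call kept in all 9 fits that left out a library. It was the 1 gene of the 9 called in middle-aged against young libraries, up 1.56-fold (0.64 ± 0.10, limma adjusted p = 0.0405), where 0.114% of all genes were called higher and 0% lower. That call was kept only without old replicate 3, and adjusted p reached 0.288 without young replicate 3. Beside it, all 12 neutrophil markers had higher values in middle-aged than in young libraries, with a median of 0.50, 0 called by limma or in the authors' deposited table and 2 at an unadjusted p under 0.05; their part in the result was not tested. The H2-Q6 difference of old minus middle-aged was 0.09 ± 0.10. The authors' deposited table gives 1.16 for old against young and 0.96 for middle-aged against young libraries on the log2 scale, with DESeq2 adjusted p of 1.07e-10 and 2e-08. H2-Q6 was also the 1 of the 9 that this table called in middle-aged against young libraries, against 3.26% of genes.

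H2-D1 had its larger difference between 15 and 23 months and H2-Q6 between 6 and 15 months. The second step minus the first step was 1.45 ± 0.38 for H2-D1 and -0.55 ± 0.17 for H2-Q6. Neither passed the threshold (limma adjusted p = 0.434 and 0.462). Over all genes, 0 were called in this contrast by limma, with 1181 at an unadjusted p under 0.05. The 2 steps share the middle-aged libraries.

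**Figure D4:**
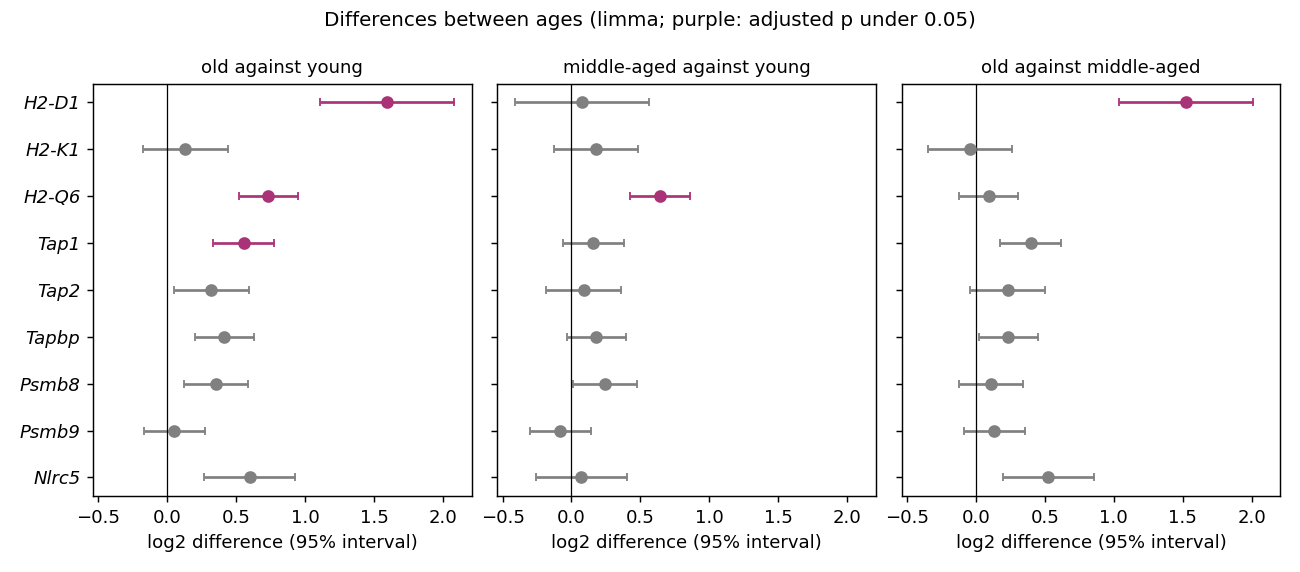
Log2 differences of the 9 genes between ages with 95% intervals from limma, purple where the adjusted p was under 0.05. H2-D1, H2-Q6 and Tap1 are purple in old against young, H2-Q6 alone in middle-aged against young and H2-D1 alone in old against middle-aged.

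Tap1 and Tap2 encode the subunits of the peptide pump. Tap1 stood at 10.82, 10.81 and 10.94 in young, 11.09, 10.92 and 11.03 in middle-aged and 11.26, 11.48 and 11.49 in old libraries. Old libraries were above both younger ages, which overlapped with each other. Tap1 rose 1.47-fold in old against young libraries (0.56 ± 0.10 SE, n = 3 per group, limma adjusted p = 0.0236). The call was lost without any 1 young library, without old replicate 2 and without old replicate 3, with adjusted p from 0.0515 to 0.104, and with only the 2 ages fitted (limma adjusted p = 0.0562). The authors' deposited table gives 0.76 (DESeq2 adjusted p = 1.98e-05). Tap2 stood at 10.24, 10.59 and 10.32 in young, 10.68, 10.39 and 10.35 in middle-aged and 10.70, 10.76 and 10.65 in old libraries. Its old libraries lay above the young ones but not above middle-aged replicate 1. The difference of old minus young was 0.32 ± 0.12 (limma adjusted p = 0.226). It was called with library weights (limma adjusted p = 0.0427) and not in the authors' deposited table (DESeq2 adjusted p = 0.127).

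Tapasin, encoded by Tapbp, links class I molecules to the pump. Tapbp stood at 13.63, 13.87 and 13.78 in young, 13.98, 13.88 and 13.96 in middle-aged and 14.05, 14.16 and 14.32 in old libraries. The 3 ages did not overlap and lay in order of age. The difference of old minus young was 0.42 ± 0.10 (limma adjusted p = 0.0575), short of the threshold, and it was called when genes with a mean under 50 counts were left out (limma adjusted p = 0.0436). The authors' deposited table gives 0.50 (DESeq2 adjusted p = 0.00797).

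Psmb8 and Psmb9 encode catalytic subunits of the immunoproteasome. Psmb8 stood at 9.83, 9.77 and 9.71 in young, 10.13, 10.06 and 9.86 in middle-aged and 10.11, 10.04 and 10.23 in old libraries. Both later ages lay above the young libraries and overlapped with each other. The difference of old minus young was 0.35 ± 0.10 (limma adjusted p = 0.12), while the authors' deposited table called it (0.57, DESeq2 adjusted p = 0.00852). Psmb9 stood at 11.84, 11.89 and 11.87 in young, 11.95, 11.79 and 11.62 in middle-aged and 11.86, 11.97 and 11.92 in old libraries. The ages overlapped, and the difference of old minus young was 0.05 ± 0.10 (95% interval -0.17 to 0.27). Psmb9 starts next to Tap1 on the other strand, and the interval of Tap1, 0.33 to 0.78, lies above that of Psmb9.

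Set against the constitutive subunit that each replaces, the log2 ratio of Psmb8 to Psmb5 was 0.28 ± 0.07 in old and 0.10 ± 0.09 in young libraries (SD, n = 3 each). The difference of 0.18 had an exact two-sided permutation p of 0.1, the smallest that 3 against 3 libraries can give. The ratio of Psmb9 to Psmb6 was -1.68 ± 0.21 in old and -1.55 ± 0.01 in young libraries (exact permutation p = 0.4, n = 3 each). In middle-aged against young libraries the ratios differed by 0.16 for Psmb8 to Psmb5 and by -0.15 for Psmb9 to Psmb6 (exact permutation p = 0.2 and 0.1, n = 3 each). The other pair, Psmb10 and Psmb7, was not analysed here.

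Nlrc5 encodes the transactivator that assembles on the X and Y boxes of class I promoters. It stood at 10.64, 10.33 and 10.65 in young, 10.57, 10.47 and 10.81 in middle-aged and 10.86, 11.26 and 11.30 in old libraries. The old libraries were above all younger ones, old replicate 1 by the least, and the younger ages overlapped. The difference of old minus young was 0.60 ± 0.15 (limma adjusted p = 0.0718), short of the threshold, and 0.07 ± 0.15 for middle-aged minus young. It was called without old replicate 1 (limma adjusted p = 0.0492), and in the authors' deposited table (0.73, DESeq2 adjusted p = 0.00542).

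In middle-aged against young libraries, the median difference of the 9 genes was 0.16, against 0.00 over all genes tested. H2-Q6, Tapbp and Psmb8, 3 of the 9, had no overlap in the higher direction, where 11.6% of all genes had none. In old against middle-aged libraries the median was 0.23, against 0.00, and 4 of the 9 had no overlap in the higher direction (H2-D1, Tap1, Tapbp and Nlrc5), against 6.47% of genes. In that comparison 1 of the 9 was called higher by limma and 1 in the authors' deposited table, H2-D1 in both, against 0.16% and 0.859% of genes, and limma called 0.0134% of genes lower.

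The remaining genes of the pathway were taken from lists of heavy chains, loading factors, proteasome partners and regulators. In old against young libraries limma called 0 of 7 other heavy chain genes tested, with 2 at an unadjusted p under 0.05, both higher, and a median of 0.25. In this and the following lists such counts stand against the same 9.07% of all genes higher and 7.69% lower. Calls stand against 1.7% higher and 0.301% lower by limma, and 4.72% higher in the authors' deposited table. H2-M3, which presents formylated peptides, had a difference of 0.43 ± 0.10 (limma adjusted p = 0.0607), and H2-M2 had 0.41 ± 0.11 (adjusted p = 0.104 by limma). The authors' deposited table called both higher (DESeq2 adjusted p = 0.00293 and 0.0135). H2-Q7, the closest relative of H2-Q6 here, had 0.37 ± 0.17 for old minus young and 0.40 for middle-aged minus young. The authors' deposited table gave H2-Q7 an adjusted p of 0.136 for the first and 0.00529 for the second of these. Among 4 class I-like genes outside the MHC limma called 0, with 1 lower at an unadjusted p under 0.05: Fcgrt, the neonatal Fc receptor gene, at -0.37 ± 0.09 (limma adjusted p = 0.0769), which the authors' deposited table called lower (DESeq2 adjusted p = 0.00486). Hfe had -0.24 ± 0.12 and Cd1d1 -0.15 ± 0.09. B2m, which encodes beta-2 microglobulin, was not analysed here.

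Of 10 peptide loading and trimming genes 0 were called by limma, with 4 higher and 0 lower at an unadjusted p under 0.05. Among those with the smallest p were Sec61b, a subunit of the translocon (0.47 ± 0.11, limma adjusted p = 0.0629), and Pdia3, encoding the disulphide isomerase of the loading complex (0.43 ± 0.10, limma adjusted p = 0.0599). The chaperone gene Canx had 0.30 ± 0.09. The authors' deposited table called Sec61b and Pdia3 higher (DESeq2 adjusted p = 0.00592 and 0.00642). Of 5 immunoproteasome partners 0 were called by limma and 3 were higher at an unadjusted p under 0.05. The PA28 activator genes Psme2 and Psme1 had 0.33 ± 0.10 and 0.31 ± 0.09, and the assembly factor gene Pomp had 0.22 ± 0.09. Psme1 and Psme2 were called higher in the authors' deposited table. The constitutive subunit genes Psmb5, Psmb6 and Psmb7 had 0.17, 0.18 and 0.01, with 0 of 3 called by limma, 0 at an unadjusted p under 0.05 and 0 in the authors' deposited table.

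Among 26 regulators of class I transcription 1 rose, 0 fell and 25 were not called by limma in old against young libraries, and their median was 0.01. The limma shares over all genes were 1.7% called higher and 0.301% lower. At an unadjusted p under 0.05, 4 were higher and 1 lower, against 9.07% and 7.69% of all genes. Irf7, an interferon-induced transcription factor gene, rose by 0.72 ± 0.15 (limma adjusted p = 0.0424). Stat2 and Irf8, which act in interferon signalling, had 0.44 ± 0.10 and 0.32 ± 0.10, and the NF-kB subunit gene Nfkb1 had -0.31 ± 0.08. The authors' deposited table called 3 higher, Irf7, Stat2 and Irf8, against 4.72% of genes, and 1 lower, Nfkb1.

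CD8+ T cells and NK cells read class I molecules, and 2 of 19 T and NK cell markers rose in old against young libraries with 0 falling (limma). Both encode the chains of the CD8 co-receptor: Cd8b1 averaged 6.53 in old and 6.24 in young libraries (0.29 ± 0.06, limma adjusted p = 0.0434), and Cd8a 5.80 and 5.55 (0.25 ± 0.05, limma adjusted p = 0.044). At an unadjusted p under 0.05, 10 of the 19 were higher and 2 lower, against 9.07% and 7.69% of all genes. Over all genes limma called 1.7% higher and 0.301% lower, which applies to the marker lists below too. The authors' deposited table called 7 of the 19 higher, against 4.72% of genes. Cd8b1 was among the 7 and Cd8a was not (DESeq2 adjusted p = 0.0538). All 19 markers passed the filter, and they summed to 2915 to 3217 normalized counts in young, 2784 to 3220 in middle-aged and 3239 to 3615 in old libraries. The old sums were above those of both other ages. Monocyte markers had 2 of 12 called higher, Fn1 and Plac8. By value 11 of the 12 were higher. At an unadjusted p under 0.05, 4 were higher and 0 lower, against 9.07% and 7.69% of all genes. The authors' deposited table called 4 of the 12 higher, against 4.72% of genes. The 12 summed to 40835 to 56259 in young, 54196 to 99594 in middle-aged and 53280 to 75808 in old libraries. The 3 ages overlapped, with the highest sum in a middle-aged library. Endothelial and mural markers had 1 of 9 called higher, Flt1. Border macrophage markers had 2 of 11 called lower, Mgl2 and Stab1, and dendritic cell markers 2 of 9, Cd209a and Siglech. At an unadjusted p under 0.05, 9 of the 11 border macrophage markers were lower and 0 higher, against the same shares. For dendritic cell markers these counts were 3 and 0, and for endothelial and mural markers 1 and 1. The authors' deposited table called 6 of the 11 border macrophage markers lower, among 1230 genes called in either direction. Siglech is also in the microglia list, of which 3 of 15 were called higher (C1qa, C1qc and Tyrobp) and 2 lower (Siglech and Fcrls). The part of these cells in the class I differences was not tested.

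For the 3 genes called in old against young libraries, the nearest genes among 10929 were found over the 9 libraries. The measure was the root mean square difference of log2 values that were centred and not scaled. It therefore counts the size of a change as well as its shape. The gene nearest to H2-D1 was Fth1, the ferritin heavy chain gene, at 0.14, and the next were Igkv4-59 at 0.37 and Aplp2 at 0.39. Nearest to Tap1 were Cd34, Acot9 and Lipa at 0.07 to 0.08, and nearest to H2-Q6 were Ildr2, Olr1 and Rps3a1 at 0.09 to 0.13. Of the other 8 genes of the pathway, 1 was among the 20 nearest to Tap1, Tapbp at 0.11. None was among the 20 nearest to H2-D1 or H2-Q6, where the closest were Nlrc5, 67th at 0.54 from H2-D1, and Psmb8, 210th at 0.21 from H2-Q6. Old minus young was 1.60 for H2-D1 and 0.74 for H2-Q6, the next largest of the 9. Distance from H2-D1 therefore cannot show whether the other genes share its shape over the libraries.

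**Figure D5:**
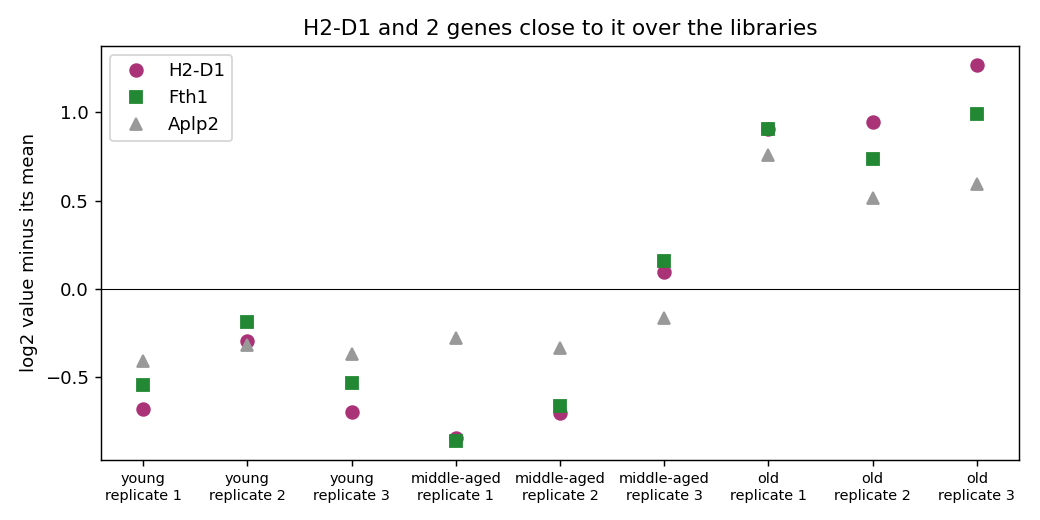
Log2 values of H2-D1, Fth1 and Aplp2 in each library, each minus its mean over the 9 libraries. H2-D1 and Fth1 share the raised values of young replicate 2 and middle-aged replicate 3 within their ages, and all 3 genes are highest in the old libraries.

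Fth1 stood at 16.60, 16.95 and 16.61 in young, 16.28, 16.48 and 17.30 in middle-aged and 18.05, 17.88 and 18.13 in old libraries. As for H2-D1, young replicate 2 was the highest young library and middle-aged replicate 3 the highest middle-aged one. Its difference of old minus young was 1.30 ± 0.22 (limma adjusted p = 0.0153), and of old minus middle-aged 1.33 ± 0.22 (limma adjusted p = 0.0494). Fth1 was picked from 10929 genes because its 9 values lay nearest to those of H2-D1. Differences and highest libraries like those of H2-D1 therefore follow from the choice and are not a separate result. Fth1 has processed pseudogenes that can share its reads.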

How the data were processed

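RNA came from flow-sorted microglia, and libraries were made with the SMARTer Ultra Low RNA kit, per the labels' protocols, which do not state the gate used. The submitters' processing notes name CASAVA, cutadapt 1.13, STAR 2.5.3, DESeq2 1.16.1 and mm10; no counter, annotation or strand setting is stated. The authors deposited per-library values on a log2 scale, by a transformation not given, and tables with a mean signal, a log2 fold change, its standard error, a test score and p-values per gene, per the file headers. The log2 values were used as deposited. Genes at 3.32 (log2 of 10 counts) or more in at least 3 libraries were tested. Using limma 3.58.1 (R 4.3.3), a linear model with 3 ages was fitted, allowing the variance to follow the mean, with two-sided moderated tests, Benjamini-Hochberg adjustment over 14955 genes and a threshold of 0.05; it was tested on simulated data. Exact permutations used scipy 1.17.1 and figures matplotlib 3.10.9. The genes and lists were chosen with earlier results of these data known. All members were named, with pathway list genes called or among the 3 smallest p-values, and marker genes called in old against young libraries. Alternatives covered filters, pseudocounts of 1 and 10, scaling, the variance model, weighting of libraries, blocking by replicate number, fitting 2 ages only and leaving out each library. Positions and lengths come from GENCODE M21 on GRCm38, promoters from RefSeq on GRCm38.p6.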

Additional observations from a re-analysis of the deposited data

How the results depend on the processing

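Of the 9 genes, 3 were called in old against young libraries and 2 to 4 when a library was left out; 2 were called with only the 2 ages fitted, where Tap1 was lost. With library weights 6 were called, with Tap2 and without Nlrc5, and 6 in the authors' deposited table, with Nlrc5 and without Tap2. In each other comparison 1 was called and 0 to 1 with a library left out. In middle-aged against young libraries the count was 0 with no filter, with the replicate block or with only the 2 ages fitted, and in old against middle-aged libraries 0 with no filter, with no variance trend or with only the 2 ages fitted. The replicate block kept the 3 calls in old against young and changed no other call than that of H2-Q6 in middle-aged against young (limma adjusted p = 0.106). Same-numbered libraries did not deviate together throughout (correlations from -0.242 to 0.234), and for differently numbered ones the correlations ran from -0.437 to 0.421. Deviations from a mean of 3 libraries depend on each other, so these values cannot decide whether the numbers pair libraries. Over all genes 299, 17 and 26 were called in the order old against young, middle-aged against young and old against middle-aged. These counts were 84 to 322, 4 to 49 and 3 to 23 with a library left out, 1609, 312 and 62 with library weights, 170, 10 and 9 with no filter, 185, 11 and 14 with the block, and 153, 12 and 0 with 2 ages fitted. They were 367, 29 and 46 with a mean of at least 50 counts, 356, 20 and 3 with no variance trend and 1230, 938 and 199 in the authors' deposited table. The step difference had 5 calls without middle-aged replicate 2 and 1 without middle-aged replicate 3, against 0.

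None of the differences that changed sign had been called. With library weights, H2-K1 in old against young was -0.00458 and Nlrc5 in middle-aged against young -0.00577. With a library left out, the log2 differences in middle-aged against young ran from -0.217 to 0.255 for H2-D1, -0.0329 to 0.147 for Nlrc5, -0.160 to 0.00398 for Psmb9 and -0.0122 to 0.191 for Tap2. For H2-K1 they ran from -0.0125 to 0.228 in old against young and -0.122 to 0.0750 in old against middle-aged. The difference of H2-D1 minus H2-K1 within a library, which has no test and was added after seeing the data, ran from -0.431 to 0.126 in middle-aged against young. In old against middle-aged the ratio of Psmb8 to Psmb5 ran from -0.0218 to 0.0763 and that of Psmb9 to Psmb6 from -0.0925 to 0.113. The summed heavy chain difference stayed within 1 SD under all alternatives run. The cause of these changes was not tested. With 3 pools per age and unknown depth, a difference that missed the threshold is not shown to be absent.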
